A study of Rattus norvegicus with 6 samples.

Results

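The 10 genes described here encode the vascular endothelial growth factor (VEGF) system: the ligand genes Vegfa, Vegfb, Vegfc, Vegfd and Pgf, the receptor genes Flt1, Kdr and Flt4, and the neuropilin co-receptor genes Nrp1 and Nrp2. They were chosen by name, with earlier results of these data known. Every probe set annotated with exactly 1 of these symbols was taken, which gave 17 of the 31042 probe sets tested. The cells were LN4D6, described in the labels as rat mammary tumour cells. The CREB3L1 group was 3 samples of this line transfected with CREB3L1, and the untransfected group was 3 samples of the same line with no transfection. Whether the CREB3L1 cells were 1 clone or a pool, which species the construct came from and when RNA was taken after transfection are not stated in the labels. The controls received no construct, so the act of transfection and CREB3L1 itself cannot be told apart.

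VEGF ligands are secreted dimers. VEGFA binds the tyrosine kinase receptors encoded by Flt1 and Kdr, VEGFB and placental growth factor bind the Flt1 product, and VEGFC and VEGFD bind the Flt4 product on lymphatic endothelium. Neuropilins have short cytoplasmic tails, bind both VEGF ligands and class 3 semaphorins, and act as co-receptors. Tumour epithelium commonly secretes VEGFA toward endothelial cells, and Vegfa transcription rises with hypoxia-inducible factors. CREB3L1, also called OASIS, is an endoplasmic reticulum protein whose cleaved amino-terminal part acts in the nucleus as a bZIP transcription factor.

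Values are the authors' log2 RMA expression values. Differences are CREB3L1 minus untransfected with the standard error (SE), group levels are mean ± SD with n = 3 per group, and p-values come from limma with Benjamini-Hochberg adjustment over all 31042 probe sets. A log2 value of 5 was taken as the background level, since no detection calls were used here. Levels of different probe sets are not comparable with each other. The labels do not say whether replicates were separate cultures, and p-values therefore reflect only how much these 6 samples vary, which may be technical.

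On every array, 37.95% to 38.59% of probe sets reached the background level. CREB3L1 replicate 3 stood apart: the Gapdh control read 4.77 higher at its 3' than its 5' probe set there, against -0.16 to -0.10 on the other 5 arrays. Results that rest on this array are given with and without it. The transfected gene's own rat probe set was below background in both groups (3.39 ± 0.03 in CREB3L1 and 3.36 ± 0.02 in untransfected cells) and checks nothing about a construct of unknown sequence. Of 9 basal mammary epithelial markers, Krt14, Krt5, Tp63 and Acta2 were above background, while Cnn1, Myh11, Mme, Krt17 and Oxtr were below it in both groups. Of 13 luminal markers, 3 were above background in both groups, Areg, Krt8 and Gata3, and Epcam, Cdh1 and Krt18 were among those that were not. Among 11 measured endothelial markers, 1 had a group mean above background, Mmrn2. This gene encodes a matrix glycoprotein and rose by 2.30 ± 0.19 (adjusted p = 0.00915). Egfl7 averaged 4.62 in CREB3L1 and 4.87 in untransfected cells. It was above background on CREB3L1 replicates 1 and 2 (5.14 and 5.15) and untransfected replicate 1 (5.03). Its low CREB3L1 mean thus rests on replicate 3 (3.56). The Egfl7 difference was -0.26 ± 0.47 with all arrays and 0.27 ± 0.14 without that replicate (adjusted p = 0.514). Pecam1, Tie1 and Vwf were below background in both groups, and the summed linear level of the endothelial list ran from 326 to 452 on the CREB3L1 arrays and from 131 to 142 on the untransfected arrays. The sum was also taken without Mmrn2, a setting chosen after seeing the data. For the other 10 markers it ran from 56.8 to 83.1 on the CREB3L1 arrays and from 72.5 to 80.9 on the untransfected arrays. The groups overlapped only through CREB3L1 replicate 3, which had the lowest sum and the low Egfl7 value. The part of these markers in the results below was not tested.

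Of the 17 probe sets, 3 were lower in CREB3L1 cells, 1 each for Vegfa, Vegfb and Nrp1, and 0 were higher. The other 14 did not pass the test. Across all probe sets, 0.963% were called lower and 0.425% higher, against 17.6% of the member probe sets called lower. The member share rests on 3 probe sets, of genes chosen with earlier results of these data known. Without CREB3L1 replicate 3, 4 member probe sets were lower and 0 higher, against 2.44% called lower and 1.54% higher over all probe sets. The 5 member probe sets above background in a group belong to Vegfa, Nrp1 and Nrp2, and the other 7 genes were below background in both groups. The groups did not overlap for 5 member probe sets, all of Vegfa, Vegfb or Nrp1 and all lower in CREB3L1 cells. Probe sets of the same gene are not separate results. Over all probe sets, 7.75% had lower, non-overlapping groups.

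**Figure D1:**
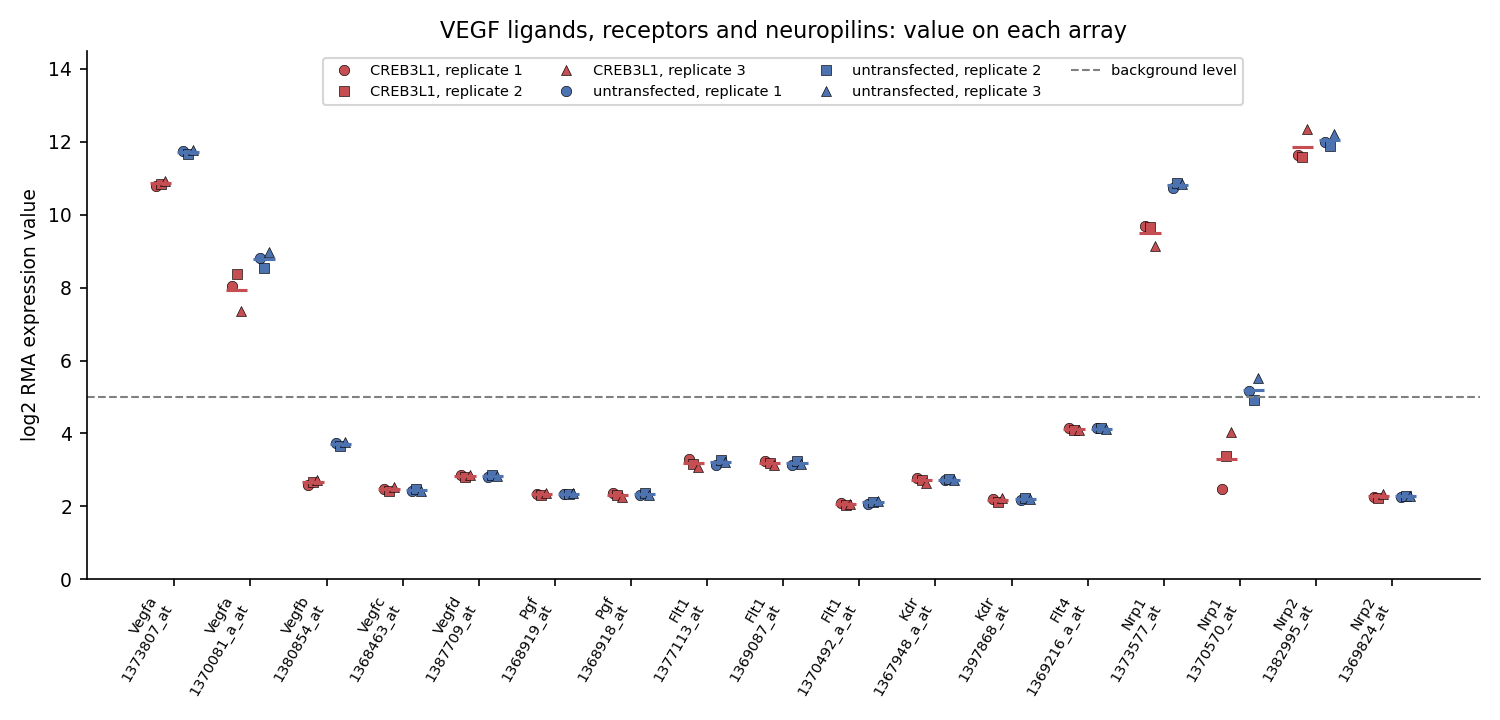
Log2 RMA value (y axis) of each of the 17 probe sets (x axis) on each array; red, left, CREB3L1 and blue, right, untransfected, with the marker shape giving the replicate, short lines the group means and the dashed line the background level of 5. Vegfa 1373807_at and Nrp1 1373577_at sit lower on all 3 CREB3L1 arrays, and the receptor genes lie below the dashed line in both groups.

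The ligand gene Vegfa fell. Its brighter probe set, 1373807_at, read 10.79, 10.86 and 10.94 in CREB3L1 cells, against 11.74, 11.67 and 11.78 in untransfected cells. All 3 CREB3L1 arrays were below all 3 untransfected arrays, and the gap exceeded the spread within either group several times over. The difference was -0.87 ± 0.05, which is 1.83-fold lower in CREB3L1 cells (95% confidence interval -1.01 to -0.74, adjusted p = 0.00404). In bulk RNA, fewer expressing cells and less RNA per cell cannot be told apart. The CREB3L1 replicate with the divergent controls was the highest of its group for this probe set. Without that replicate the difference was -0.91 ± 0.05 (adjusted p = 0.00241). The call held in all 13 alternative settings, with adjusted p from 6.25e-04 to 0.0429. Of the 12072 probe sets above background in a group, 5.29% differed by more than this one.

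The second Vegfa probe set, 1370081_a_at, read 8.04, 8.38 and 7.37 in CREB3L1 cells, against 8.82, 8.54 and 8.97 in untransfected cells. The groups again did not overlap, but here CREB3L1 replicate 3 was the lowest array and the spread among CREB3L1 replicates was wide (SD 0.51). The difference of -0.85 ± 0.28 lay close to that of the brighter probe set but did not pass the test (adjusted p = 0.378). It was -0.57 ± 0.16 without CREB3L1 replicate 3 (adjusted p = 0.175). Averaging both Vegfa probe sets gave -0.86 with an adjusted p of 0.0472. This p came from a separate limma fit with 1 averaged row per gene, adjusted over 14217 genes. It is not on the same scale as the values adjusted over all probe sets.

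Vegfb encodes a ligand of the Flt1 receptor that is known for effects on fatty acid handling and cell survival more than on vessel growth. Its single probe set, 1380854_at, read 2.60, 2.66 and 2.73 in CREB3L1 cells, against 3.75, 3.66 and 3.77 in untransfected cells. Replicates agreed closely in both groups and the groups were well apart, although every value was below the background level. The difference was -1.06 ± 0.05 (adjusted p = 0.00197), and it passed the test in all 12 alternatives that kept the probe set, including the fit without CREB3L1 replicate 3 (-1.09 ± 0.05, adjusted p = 0.00152). No fold change is given, because both groups were below background. Of the 18970 probe sets below background in both groups, 21 were called lower and 26 had a fall at least this large. The untransfected Vegfb mean of 3.72 was reached by 5.92% of these dim probe sets and the CREB3L1 mean of 2.66 by 34.2%.

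The remaining ligand genes gave values without a group difference. Vegfc, a lymphatic growth factor, read 2.48, 2.42 and 2.52 in CREB3L1 cells, against 2.43, 2.48 and 2.44 in untransfected cells. Vegfd, its closest relative, read 2.85, 2.80 and 2.85 in CREB3L1 cells, against 2.81, 2.87 and 2.83 in untransfected cells. The Pgf probe sets, 1368919_at and 1368918_at, had means of 2.34 and 2.32 in CREB3L1 cells and of 2.35 and 2.33 in untransfected cells. The groups overlapped for all of these, and all lay below background.

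The receptor tyrosine kinase genes were below background on every array. Kdr, which encodes the main signalling receptor for VEGFA, read 2.77, 2.71 and 2.66 on probe set 1367948_a_at in CREB3L1 cells, against 2.72, 2.75 and 2.73 in untransfected cells. Its other probe set, 1397868_at, averaged 2.19 ± 0.05 in CREB3L1 cells and 2.20 ± 0.04 in untransfected cells. Neither Kdr probe set separated the groups. Flt1 encodes a receptor that binds VEGFA tightly and is also made as a soluble decoy. Its 3 probe sets averaged 3.18, 3.20 and 2.07 in CREB3L1 cells, against 3.21, 3.18 and 2.11 in untransfected cells. Flt4, the lymphatic receptor gene, read 4.16, 4.09 and 4.10 in CREB3L1 cells, against 4.15, 4.14 and 4.11 in untransfected cells. These Flt4 values were the nearest to background among the receptor probe sets, and they too overlapped.

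Leaving Vegfb aside, 11 member probe sets were below background in both groups, with differences from -0.04 to 0.02 and 95% confidence limits at most 0.18 from the difference. The lowest unadjusted p among them was 0.338, and in limma 0 had an unadjusted p under 0.05. A probe set that does not rise above background may not register a change in its transcript, so these intervals describe the signal and not the RNA.

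**Figure D2:**
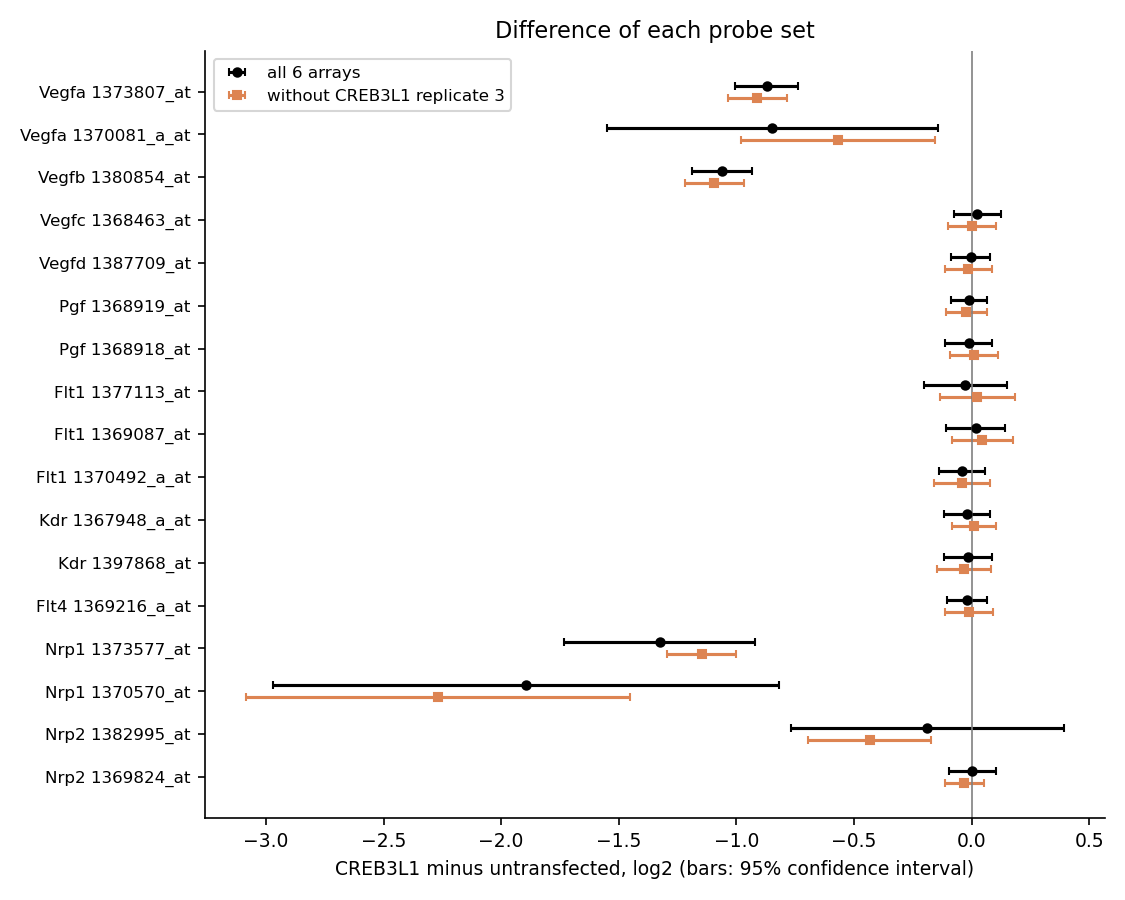
Log2 difference, CREB3L1 minus untransfected (x axis), of each probe set with its 95% confidence interval from limma; black circles use all 6 arrays and orange squares leave out CREB3L1 replicate 3. The intervals of Vegfa 1373807_at (-1.01 to -0.74) and Nrp1 1373577_at (-1.73 to -0.92) lie below 0 in both fits, and that of Nrp2 1382995_at (-0.77 to 0.39) spans 0 with all arrays.

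The co-receptor gene Nrp1 fell. Probe set 1373577_at read 9.69, 9.65 and 9.14 in CREB3L1 cells, against 10.72, 10.88 and 10.85 in untransfected cells. The 2 groups were separate, and CREB3L1 replicate 3 was the lowest of all arrays. The difference was -1.33 ± 0.16, which is 2.51-fold lower in CREB3L1 cells (95% confidence interval -1.73 to -0.92, adjusted p = 0.0310). Without CREB3L1 replicate 3 the difference was -1.15 ± 0.06 (adjusted p = 0.00206). Leaving out any 1 of the other 5 arrays ended the call, with adjusted p from 0.0842 to 0.150 and differences from -1.42 to -1.29, and the ordinary test without moderation ended it as well (adjusted p = 0.169). Of probe sets above background in a group, 2.32% differed by more.

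The dimmer Nrp1 probe set, 1370570_at, read 2.47, 3.40 and 4.05 in CREB3L1 cells, against 5.16, 4.91 and 5.53 in untransfected cells. All CREB3L1 values were below background and below every untransfected value, and here CREB3L1 replicate 3 was the highest of its group. Against the background level this is at least 1.15-fold lower in CREB3L1 cells, with a difference in values as given of -1.89 ± 0.43 (adjusted p = 0.166). It passed the test without CREB3L1 replicate 3 (-2.27 ± 0.32, adjusted p = 0.0295). Averaging both Nrp1 probe sets gave -1.61 with an adjusted p of 0.0112, again from the separate limma fit adjusted over genes.

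Nrp2, the co-receptor that pairs with Flt4 and with class 3 semaphorins other than those favoured by Nrp1, was bright on probe set 1382995_at. It read 11.64, 11.58 and 12.35 in CREB3L1 cells, against 12.01, 11.90 and 12.23 in untransfected cells. CREB3L1 replicates 1 and 2 were below all untransfected arrays, and replicate 3 was above them. The difference of -0.19 ± 0.23 did not pass the test (95% confidence interval -0.77 to 0.39, adjusted p = 0.9998). Without CREB3L1 replicate 3 it was -0.43 ± 0.10, with an interval of -0.70 to -0.17 and an adjusted p of 0.113, so the direction was the same and the size 2.31 times larger. The difference shrank to -0.08 without CREB3L1 replicate 1, to -0.05 without CREB3L1 replicate 2 and to -0.10 without untransfected replicate 3, and was -0.21 and -0.26 without untransfected replicates 1 and 2. The other Nrp2 probe set, 1369824_at, was below background in both groups (2.28 ± 0.06 in CREB3L1 and 2.28 ± 0.01 in untransfected cells).

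The array with the high Gapdh gap thus lay at the low end of the CREB3L1 group for Vegfa 1370081_a_at and Nrp1 1373577_at. It lay at the high end for Vegfa 1373807_at, Vegfb 1380854_at, Nrp1 1370570_at and Nrp2 1382995_at. The part of RNA quality in these spreads was not tested.

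Whether Nrp1 moved differently from Nrp2 was read from the log2 ratio of their bright probe sets within each array, a test chosen after the values were seen. Nrp1 minus Nrp2 was -1.96, -1.92 and -3.21 on the CREB3L1 arrays, against -1.29, -1.02 and -1.38 on the untransfected arrays, a change of -1.14. The groups did not overlap, and the exact two-sided permutation p was 0.1, the smallest that 3 against 3 arrays allow. Without CREB3L1 replicate 3 the change was -0.71. Vegfa minus Nrp2 changed by -0.68 (exact permutation p = 0.1) and Vegfa minus Nrp1 by 0.45 (exact permutation p = 0.1). These changes were -0.48 and 0.24 without CREB3L1 replicate 3. Over the 3 ratios the adjusted values were also 0.1, and with this number of arrays no ratio could pass the threshold.

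**Figure D3:**
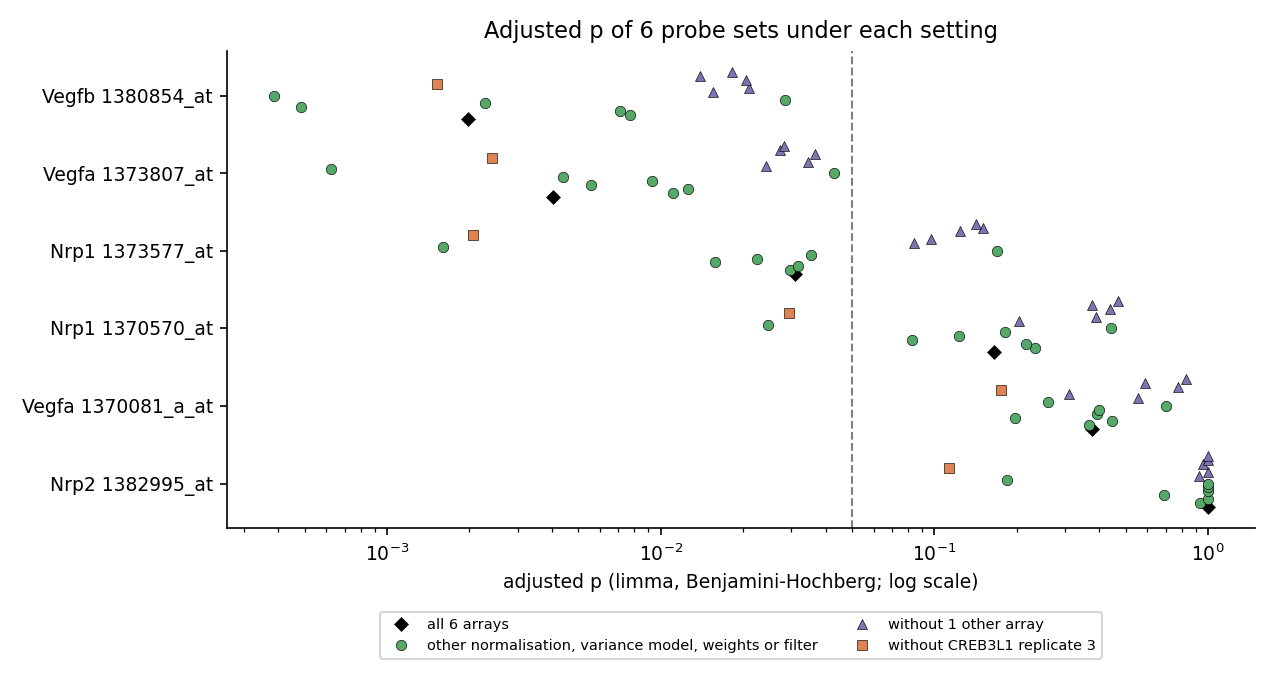
Adjusted p from limma (x axis, log scale) for 6 probe sets (rows) with all 6 arrays (black diamonds), without CREB3L1 replicate 3 (orange squares), without 1 other array (violet triangles) and under other settings (green circles); the dashed line is 0.05. All points of Vegfa 1373807_at and Vegfb 1380854_at lie left of the line, and Nrp1 1373577_at crosses it when any other array is left out and in the ordinary test without moderation.

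The genes whose pattern over the 6 arrays was most like each bright call were taken from 925 other genes above background with an absolute difference of at least 0.5. Vegfa 1373807_at was closest to Mall (Pearson r = 0.997), Moxd1 (r = 0.997) and Aldh1a1 (r = 0.995), all called lower. Moxd1 fell by 6.12, while Mall and Aldh1a1 were below background in CREB3L1 cells, which leaves only a bound. Mall was at least 6.41-fold lower in CREB3L1 cells, and for Aldh1a1 this bound was 7.67-fold. Nrp1 1373577_at was closest to C1s (r = 0.999), Mxi1 (r = 0.998) and Ppp2ca (r = 0.997), which differed by -1.46, -1.77 and -0.70. With 2 groups of 3 arrays, most of such a correlation is the shared group difference, and it is given as a description only. For Nrp1, the order within the CREB3L1 group, with replicate 3 lowest, is shared as well.

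Few genes around the VEGF system passed the test, as was so over all genes. Taken 1 probe set per gene, 0.577% of all 14217 genes were called higher and 1.52% lower, with a median difference of -0.01. An unadjusted p under 0.05 was found for 14% of these genes, the share against which the counts below are read. Of 12 measured genes of the hypoxia-inducible factor machinery, 0 rose and 0 fell, by limma with adjustment over all probe sets, 2 had an unadjusted p under 0.05, and the median difference was -0.03. These were Hif1a, the oxygen-regulated subunit gene, at 15.25 ± 0.03 in CREB3L1 and 15.42 ± 0.07 in untransfected cells (-0.17 ± 0.05, adjusted p = 0.253), and Vhl, which encodes the ligase subunit that recognises it, at -0.27 ± 0.09 (adjusted p = 0.350). Among 10 other regulators of Vegfa transcription and mRNA, 0 passed the test, 1 had an unadjusted p under 0.05 and the median was 0.04. Atf4, the stress-response factor that can bind Vegfa, read 14.30, 14.34 and 13.74 in CREB3L1 cells, against 14.81, 14.70 and 14.59 in untransfected cells. Its groups did not overlap and its difference of -0.58 ± 0.18 did not pass (adjusted p = 0.328). Without CREB3L1 replicate 3 the Atf4 difference was -0.39 ± 0.07 and did not pass either (adjusted p = 0.0582). Esrra, a nuclear receptor gene, gave 0.09 ± 0.04 (adjusted p = 0.608).

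Downstream of the receptors, limma called 0 of 36 measured signalling genes in either direction, 5 had an unadjusted p under 0.05 and the median was 0.03. The smallest p belonged to the phospholipase gene Pla2g4a (-0.35 ± 0.07, adjusted p = 0.122) and to Yes1, a kinase of the Src family (0.29 ± 0.06, adjusted p = 0.140). Yes1 passed the test without CREB3L1 replicate 3 (0.34 ± 0.04, adjusted p = 0.0157). Among 12 receptor phosphatases, trafficking adaptors and integrin partners, 0 passed, 3 had an unadjusted p under 0.05 and the median was -0.07. The integrin gene Itgb5 gave -0.78 ± 0.12 (adjusted p = 0.0660), and -0.83 ± 0.13 without CREB3L1 replicate 3 (adjusted p = 0.0423). Its other 2 probe sets were below background. The phosphatase gene Ptpn11 gave 0.24 ± 0.05 (adjusted p = 0.143).

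Among 13 measured genes listed for extracellular binding and processing of VEGF ligands, 0 passed with all arrays, 4 had an unadjusted p under 0.05, and the median was -0.01. The matrix glycoprotein gene Mmrn2, which rose by 2.30 ± 0.19, was counted with the endothelial markers and not in this list. The heparan sulfate proteoglycan gene Gpc1, whose product binds heparin-binding VEGFA forms, read 11.02, 11.00 and 11.66 in CREB3L1 cells, against 12.01, 12.05 and 12.37 in untransfected cells. Its groups did not overlap, and the difference of -0.92 ± 0.21 (adjusted p = 0.179) became -1.13 ± 0.12 without CREB3L1 replicate 3 (adjusted p = 0.0135). Mmp3, a stromelysin that can cleave matrix-bound VEGFA, gave -0.77 ± 0.17 (adjusted p = 0.158), and -0.60 ± 0.10 without CREB3L1 replicate 3 (adjusted p = 0.0492). Of 12 class 3 semaphorins and plexins, which share the neuropilins with VEGF ligands, 0 rose and 1 fell, and the median was -0.01. The gene that fell was Sema3d, at 3.04 ± 0.17 in CREB3L1 and 4.30 ± 0.19 in untransfected cells (-1.26 ± 0.13, adjusted p = 0.0188), below background in both groups.

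**Figure D4:**
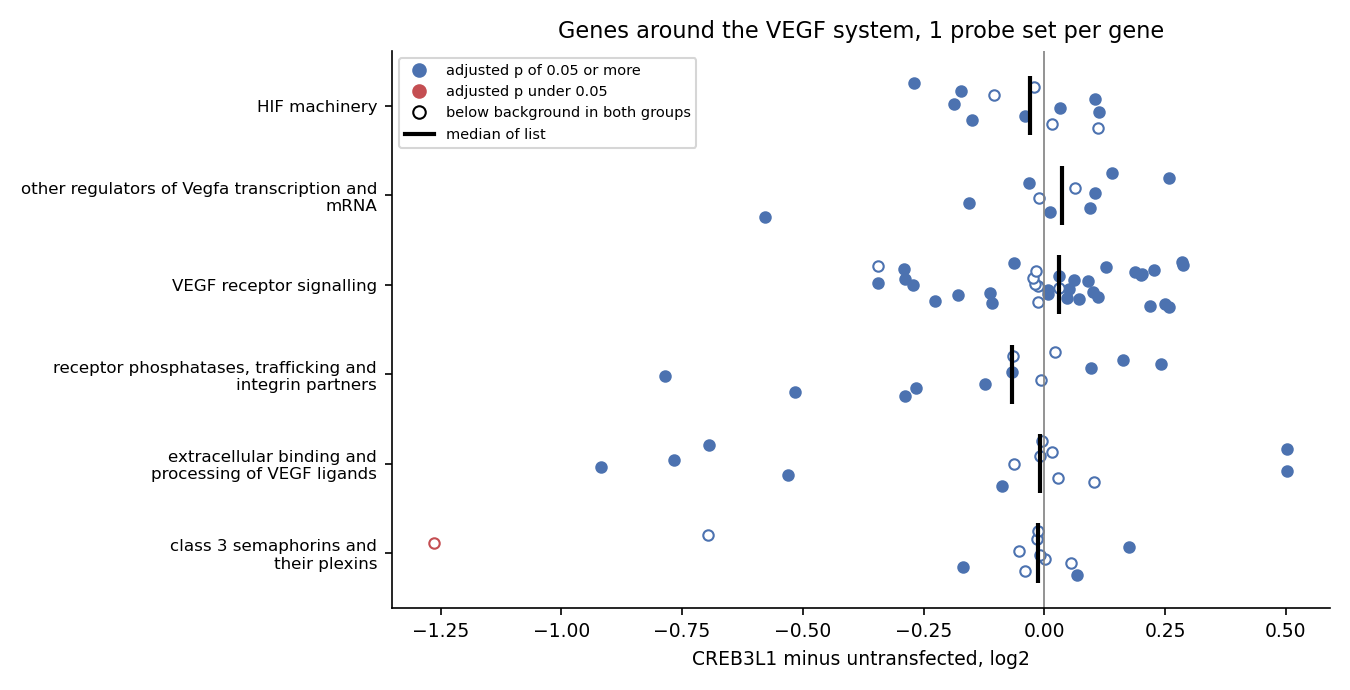
Log2 difference, CREB3L1 minus untransfected (x axis), of each measured gene in 6 lists (rows); red marks an adjusted p under 0.05, open circles are below background in both groups and black bars are list medians. The medians lie between -0.07 and 0.04, and the 1 red circle is Sema3d at -1.26.

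The stretches before the gene starts of Vegfa and Nrp1, the bright members that fell, are shown because a bZIP factor binds DNA directly. They are 250 bases from RefSeq on build GRCr8, plus strand, at chr9:22452604-22452853 for Vegfa and chr19:73256307-73256556 for Nrp1. Capitals mark matches on either strand to the motifs searched: TGACGTCA (the cyclic AMP response element, CRE), its part TGACG, its core ACGT, ACGTG and GCGTG (cores of the hypoxia response element, HRE), and GGGCGG (GC box). The shorter CRE forms lie within the full one, and ACGT lies within ACGTG.
Vegfa: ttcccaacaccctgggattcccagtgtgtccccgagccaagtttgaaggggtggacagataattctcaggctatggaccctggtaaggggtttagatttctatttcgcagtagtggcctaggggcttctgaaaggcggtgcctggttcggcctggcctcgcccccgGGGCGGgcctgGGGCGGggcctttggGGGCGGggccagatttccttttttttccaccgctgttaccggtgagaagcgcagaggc
Nrp1: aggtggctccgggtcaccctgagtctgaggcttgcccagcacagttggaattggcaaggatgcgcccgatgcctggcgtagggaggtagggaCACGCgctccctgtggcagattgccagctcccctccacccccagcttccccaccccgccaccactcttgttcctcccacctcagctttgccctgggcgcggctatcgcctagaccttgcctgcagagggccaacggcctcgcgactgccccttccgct

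The Vegfa stretch held 3 GC boxes and no match to the other motifs, and the second Vegfa start in the table had 0 matches. The Nrp1 stretch held 1 GCGTG match and no GC box. Over all 10 genes, with 11 starts, ACGT was found only before Flt1, as part of the single TGACGTCA match, while 27.7% of 33469 starts held ACGT and 1.59% held TGACGTCA. TGACG was likewise found before 1 of the 11 starts, against 18.2% of all, and ACGTG before 0, against 16.6%. GCGTG was found before 6 of the 11 starts, against 25.9% of all starts, and GGGCGG before 7, against 30.5%. G and C made up 60.4% of the Vegfa and 66.4% of the Nrp1 stretch, and over the 10 genes, with 1 start each, the share ran from 40.8% for Vegfd to 76.0% for Flt4, against a median of 51.2% over all starts. These matches describe letters in a short window, and the HRE known for Vegfa lies further upstream than the window reaches.

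**Figure D5:**
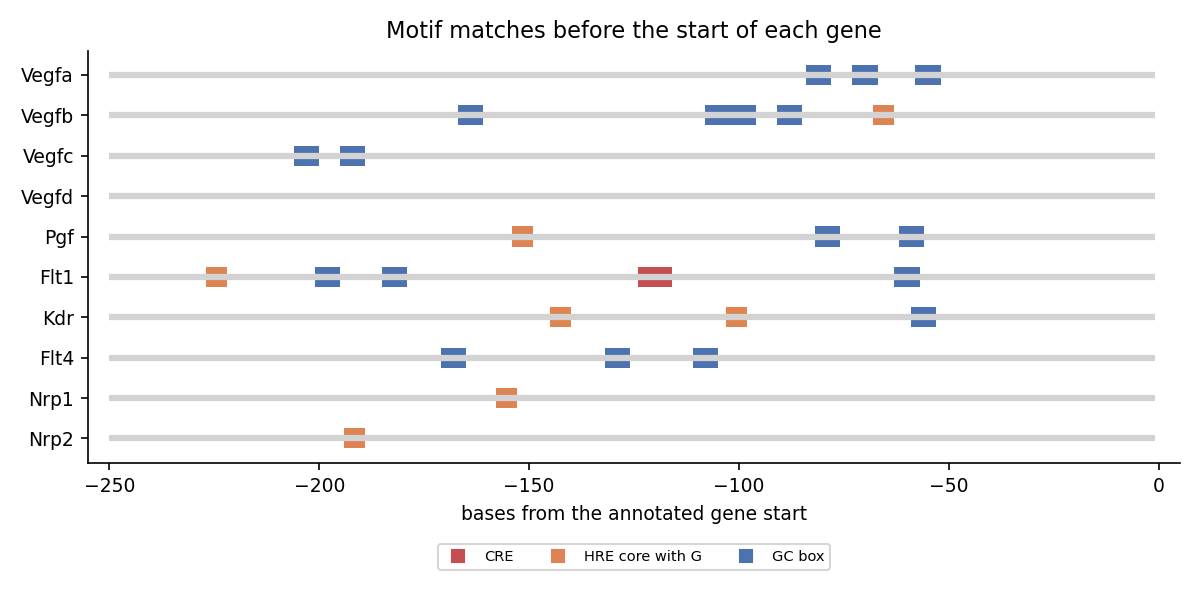
Matches to the CRE (red), the GCGTG form of the HRE core (orange) and the GC box (blue) in the 250 bases before 1 start of each gene (rows), with position in bases from the annotated start (x axis). Vegfa has 3 GC boxes, Nrp1 has 1 GCGTG match, and the single CRE lies before Flt1.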

How the data were processed

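Total RNA of 6 samples was labelled with the 3' IVT Express kit and read on Affymetrix arrays, per the labels' protocols and the design text. The authors used RMA and Partek 6.6 for the deposited log2 values, according to the submitters' processing notes. No source used here states the log base, which was read from the value range of 0.27 to 17.2, or the probe-level settings. The number of arrays limits precision.

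Of 31099 probe sets, 57 controls were set aside. Genes were named from GEO's platform annotation (20826 probe sets with 1 symbol, 436 with several, 9780 unnamed), checked against RefSeq GRCr8, and all 10 members were found. The brightest probe set represents a gene in the lists. Groups were compared in limma 3.58.1 (R 4.3.3; lmFit, eBayes, two-sided), fitted on all probe sets and tested on simulated data. In the simulation, 52% of log2 changes of 0.5 were recovered, 72% of changes of 1 and 96% of changes of 2. A gene that was not called may therefore still differ. Alternatives were other normalisations, variance models, array weights, a filter on dim probe sets, probe set means and leaving out each array. Members and lists were chosen with earlier results of these data known. Named were every member probe set, up to 4 called genes per pathway list (otherwise the 2 with the smallest p), abundant markers and the 3 genes most like each bright call. Lymphatic endothelial markers (0 of 3 above background), fibroblast markers (2 of 9, Vim and Col3a1) and immune markers (2 of 5, Cd14 and Csf1r) had 0 called genes.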

Additional observations from a re-analysis of the deposited data

How the results depend on the processing

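The count of member probe sets called lower was 2 to 4 over the 13 alternatives and the count called higher was 0 in each. Over all probe sets, leaving out 1 array gave 28 to 479 higher and 116 to 756 lower, the most without CREB3L1 replicate 3. The ordinary test gave 9 higher and 65 lower, array weights gave 600 and 952, and a mean-variance trend gave 79 higher. The Nrp1 call on 1373577_at is the member result that depends on the setting, as given above, and 1370570_at passed with array weights (-1.98, adjusted p = 0.0247). Signal below background limits what these arrays show of 7 of the 10 genes. With a background level of log2 4, 4 member genes were above it, and with log2 6, 3 were. No paired analysis was possible, because the labels do not say whether any CREB3L1 sample was paired with an untransfected one. The replicate numbers used here only follow accession order. Signs of near-zero differences below background turned: with array weights Vegfc gave -0.0169 and Nrp2 1369824_at -0.0341, with quantile normalisation Vegfd gave 0.00123 and Flt4 0.0611, and with median centring Vegfd gave 0.00591. Leaving out 1 array gave -0.0174 to 0.0128 for Vegfd, -0.0219 to 0.00171 and -0.0340 to 0.0106 for Pgf, -0.0816 to 0.0240 (1377113_at) and -0.0109 to 0.0524 (1369087_at) for Flt1, -0.0480 to 0.00806 and -0.0345 to 0.0140 for Kdr, and -0.0316 to 0.0251 for Nrp2 1369824_at.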
